A study of Mus musculus with 2 samples.

Results

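The genes described here encode integrin alpha and beta chains, their ligands and activators, and selectin ligands, which are the adhesion molecules of T cells. They were chosen as a list of 34 gene symbols, and all 34 have a row among the 24421 genes of the deposited tables. The tables come from RNA sequencing of Th1 cells, made by skewing naïve CD4 T cells of young adult C57BL/6J mice in culture with IL-12, IL-2 and an antibody against IL-4 on plate-bound anti-CD3 and anti-CD28. One library is labelled WT (Chi3l1+/+) and the other KO (Chi3l1-/-), so there was 1 library per genotype, no replicate check of any difference and no test between genotypes. The deletion of Chi3l1, the gene of chitinase 3-like 1, is present in all cells of the KO mice and not in T cells alone. The labels do not give the number of mice behind a library or the day of harvest.

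Integrins are pairs of one alpha and one beta chain, and the pair decides which ligand is bound. On T cells LFA-1 binds the ICAM proteins, VLA-4 binds VCAM-1 and fibronectin, and the beta7 pairs guide cells to the gut. Before integrins act, cells roll on selectins through PSGL-1, which binds only after fucosyltransferases have modified its sugars. Signals from the T cell receptor or chemokine receptors then activate Rap1, and talin and kindlin-3 bind the beta chain tail and open the integrin.

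The rebuilt reads summed to 70530825 in the library labelled WT and 62894673 in the library labelled KO. The targeted gene went against its label. Chi3l1, listed as Chil1, had 1 read in the library labelled WT and 103 reads in the library labelled KO, a log2 difference of 5.71. Every direction given here is therefore that of the labels. All 7 T cell markers (Cd3d, Cd3e, Cd3g, Cd4, Cd247, Thy1 and Lck) and all 5 Th1 markers were expressed in both libraries. Their log2 differences ran from -0.47 to 0.19 for the T cell list and, for the Th1 list, from -1.23 for Cxcr3 (273 and 116 reads) to 1.32 for Ifng (3477 and 8719 reads). Markers of other cells were also present, with 1687 summed reads in the WT and 3438 in the KO library for 6 B cell genes, all higher in the latter. The 2 CD8 T cell genes had summed reads of 837 and 833 but went opposite ways, Cd8a with 288 and 437 and Cd8b1 with 549 and 396. In bulk RNA, fewer cells of a type and less RNA per cell cannot be told apart.

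Of the 34 genes, 22 were expressed in Th1 cells, 10 were detected at lower levels and 2 (Itgad and Itgb6) were listed at 0 in both libraries. A gene was called expressed at a mean over both libraries of at least 1 read per kilobase of its longest transcript and 1000000 rebuilt reads, which is the level per length used below. The PSGL-1 gene Selplg had the highest level per length, 243.9, followed by Itgal with 190.4, Fermt3 with 75.9, Itgb2 with 64.8 and Cd44 with 57.2. These are the rolling ligand, both chains of LFA-1, kindlin-3 and the hyaluronan receptor. The lowest of the expressed genes was Itga4, with 1.33, which came to 0.927 and so under the limit when all exons of the gene were joined as its length. The order also depended on the length used, and Itgal ranked 1 and Selplg 2 with joined exons.

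**Figure D1:**
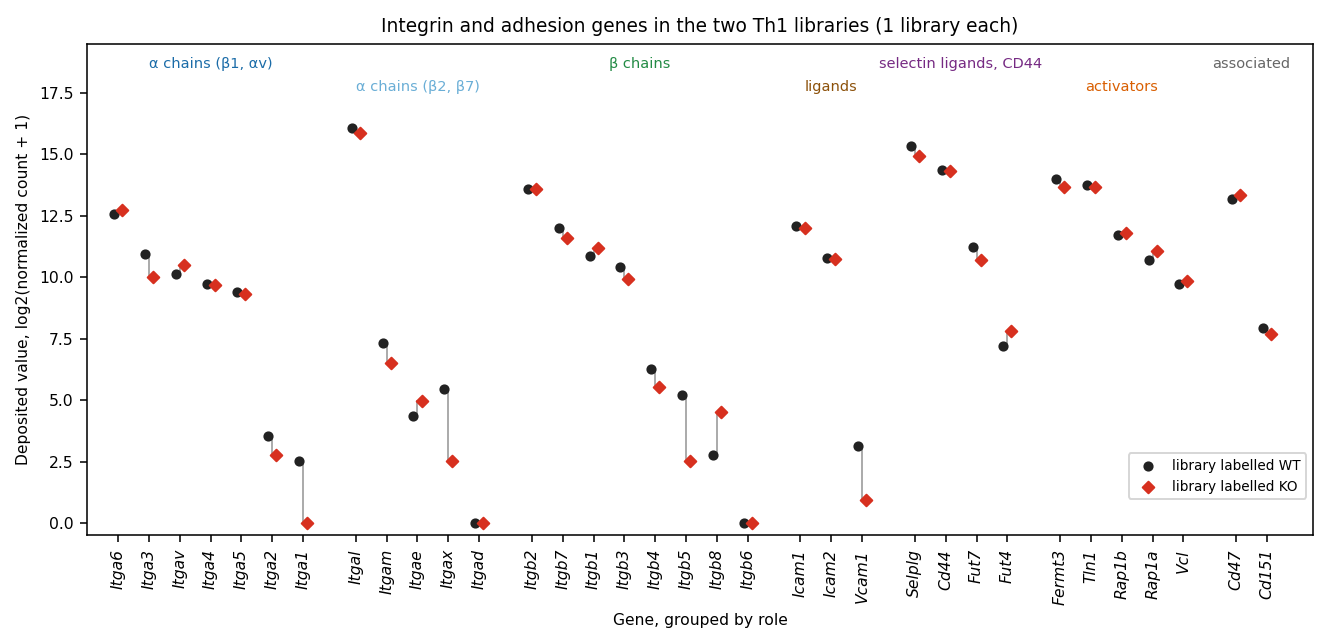
Deposited value, log2 of a normalized count plus 1, of the 34 genes in the library labelled WT (black circles) and the library labelled KO (red diamonds), grouped by role and ordered by level, with 1 library each. No expressed gene differs 2-fold between the libraries, and Itga3 differs most among them, with a log2 difference of -0.94. The longest vertical lines belong to genes near the bottom of the scale, such as Itgax, Itgb5 and Itgb8.

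No expressed gene of the list differed 2-fold between the libraries. Of all 34 genes, 5 (Itga1, Itgax, Itgb5, Vcam1 and Itgb8) were at or past 2-fold, 4 lower and 1 higher in the library labelled KO. Among all 24421 genes 10.5% were past 2-fold in either direction, 5.81% lower and 4.7% higher, and all 5 of these genes were under the expression limit. Of the 9637 genes expressed by this limit, 2.41% were past 2-fold, and of the 5865 genes above 0 and under the limit 37.9% were, so 5 of 10 for the adhesion genes at low level has to be read beside that share. Over the 32 genes above 0 the median log2 difference (KO minus WT) was -0.08, beside -0.01 over all genes above 0 in either library. The median turned positive, to 0.04 and 0.09, when the libraries were scaled to Actb or to their totals, scalings that shift the median of all expressed genes by 0.12 and 0.17.

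The promoter sequences of 4 genes, chosen by their differences in the deposited values, are given first. Itgax, Itgb5 and Itgb8 were under the expression limit, and their differences rest on few reads. Itga3 had the largest difference of the expressed genes, Itgax and Itgb5 had the largest differences of the genes at low level in the deposited values, both lower in the library labelled KO, and Itgb8 was the one gene past 2-fold higher. Each sequence runs from 250 bases before to 50 bases after a start annotated by RefSeq (GRCm38.p6), 5′ to 3′ on the strand of the gene. Capitals mark matches, on either strand, to any of 4 motifs that do not overlap in these windows. The motif of Sp-family factors is the GC box, spelled GGGCGG. The motif used for ETS factors is AGGAAG. The motif used for RUNX factors is TGTGGT. The motif of TATA-binding protein is the TATA box, spelled TATAAA.
Itga3, chr11:95076665-95076964, minus strand: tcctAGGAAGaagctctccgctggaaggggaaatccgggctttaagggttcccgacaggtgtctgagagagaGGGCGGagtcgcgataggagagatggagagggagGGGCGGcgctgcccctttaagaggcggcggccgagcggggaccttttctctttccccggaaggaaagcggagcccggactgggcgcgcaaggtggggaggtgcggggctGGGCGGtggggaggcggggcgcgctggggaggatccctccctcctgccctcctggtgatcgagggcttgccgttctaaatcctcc
Itgax, chr7:128129300-128129599, plus strand: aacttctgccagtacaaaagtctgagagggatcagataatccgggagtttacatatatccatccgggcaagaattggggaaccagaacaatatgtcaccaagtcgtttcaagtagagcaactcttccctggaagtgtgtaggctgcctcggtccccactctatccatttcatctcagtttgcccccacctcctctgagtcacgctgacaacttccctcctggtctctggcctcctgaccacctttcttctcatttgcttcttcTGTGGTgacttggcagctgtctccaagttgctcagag
Itgb5, chr16:33829415-33829714, plus strand: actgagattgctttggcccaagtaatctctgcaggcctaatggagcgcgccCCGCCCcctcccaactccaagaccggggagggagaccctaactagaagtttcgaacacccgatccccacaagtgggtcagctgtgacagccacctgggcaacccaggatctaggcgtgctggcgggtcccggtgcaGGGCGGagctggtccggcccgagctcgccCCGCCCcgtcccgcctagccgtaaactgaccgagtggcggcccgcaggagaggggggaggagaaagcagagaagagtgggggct
Itgb8, chr12:119238227-119238526, minus strand: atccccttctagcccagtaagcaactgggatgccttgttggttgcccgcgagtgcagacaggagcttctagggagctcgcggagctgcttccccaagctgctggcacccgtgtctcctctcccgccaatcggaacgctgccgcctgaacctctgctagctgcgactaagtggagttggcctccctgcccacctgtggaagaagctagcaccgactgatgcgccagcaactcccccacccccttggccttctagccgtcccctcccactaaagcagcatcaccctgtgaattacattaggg
The GC box is in 35.7% of the 32851 promoter windows in the table and in 15 of the 23 windows matched to a gene of the list. The ETS-type site is in 35.4% of all windows and 8 of the 23, the RUNX-type site in 16.8% and 4, and the TATA box in 13.6% and 1. Itga3 had 3 GC boxes and 1 ETS-type match, Itgb5 had 3 GC boxes, Itgax had 1 RUNX-type match and Itgb8 had no match to any of the 4 motifs. A match is a description of letters, and no binding was measured at these windows.

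Of the expressed alpha chains of the list that pair with beta1 or beta3, Itga6 was the most abundant and Itga3 had the largest difference as deposited. Itga6, the laminin-binding alpha6 chain, had a deposited log2 value of 12.56 in the library labelled WT and 12.73 in the library labelled KO. Itga3, another laminin receptor chain (chromosome 11, 95044474 to 95076801, GRCm38), had 10.97 in WT and 10.03 in KO, from 2064 and 1079 rebuilt reads. It was thus 1.92-fold lower in the library labelled KO, and its log2 difference of -0.94 had a 95% exact binomial (Clopper-Pearson) interval from -1.05 to -0.83. This interval holds counting error only and reaches past the 2-fold line. Of all expressed genes, 2.905% differed as much in either direction. Over the other scalings and after correction for GC content (by subtracting the median difference of genes of like GC content), the difference of Itga3 ran from -0.95 to -0.63.

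The other expressed chains of this group were closer between the libraries. Itgav, the alphaV chain that binds RGD ligands, had log2 values of 10.12 in WT and 10.52 in KO, a difference of 0.40 (interval from 0.29 to 0.51). Itga4 had 9.74 and 9.68, and Itga5, the fibronectin receptor chain, had 9.39 and 9.34. The differences of Itga4 and Itga5, both -0.05, had intervals that span 0, from -0.19 to 0.08 and from -0.21 to 0.10. Set on a length scale, Itga6 held 63.4% of the summed level of the 7 chains in the library labelled WT and 70.7% in the library labelled KO, while Itga3 held 18.6% and 9.65%. With joined exons as the length, the shares were 50.7% and 59.6% for Itga6 and 26.5% and 14.5% for Itga3. The sum leaves out Itga7, an alpha chain outside the list. Its mean level per length was 14.74 (7.322 with joined exons), above that of Itga3, 4.775 (4.065). The collagen receptor chains Itga1 and Itga2 were nearly absent, with 5 and 0 reads for Itga1 and 11 and 6 for Itga2. For Itga1, a KO count of 0 read as the floor of 3 reads makes it 1.67-fold lower. This is not a lower limit, since its interval reaches 0.12, above no difference.

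Of the alpha chains of leukocyte integrins, only Itgal was expressed. Itgal, the alphaL chain of LFA-1 (chromosome 7, 127296260 to 127335138), had a log2 value of 16.07 in the library labelled WT and 15.88 in the library labelled KO. Its difference of -0.19 (interval from -0.21 to -0.17) shrank to -0.02 when the libraries were scaled to their totals. Itgam, Itgax and Itgad, which lie nearby on the same chromosome, encode the alpha chains of myeloid integrins. Itgam had 163 and 93 reads in WT and KO, a log2 difference of -0.81 (interval from -1.20 to -0.44). Itgax, the CD11c chain (chromosome 7, 128129547 to 128150657), had 44 and 5 reads, a log2 difference of -2.91 as deposited. The log2 ratio of these reads, with nothing added, was -3.14 (interval from -4.83 to -1.81). Itgae, the alphaE chain of E-cadherin-binding T cells, had 20 and 31 reads, and its interval from -0.23 to 1.52 spans 0.

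Markers of myeloid cells were read beside Itgam and Itgax, and of the neutrophil, monocyte or macrophage, dendritic cell and mast cell or basophil lists only Cd68, with 402 and 299 reads, and Hdc, with 404 and 710, reached the expression limit. Of 7 neutrophil genes 6 were lower in the library labelled KO and Camp was at 0 in both, with summed reads of 84 in WT and 5 in KO. Of 7 monocyte or macrophage genes 4 were lower, 2 were higher and Adgre1 was at 0 in both, with sums of 554 and 510. Of the 5 dendritic cell genes other than Itgax, 3 (Flt3, Zbtb46 and Xcr1) were higher, none was lower and Clec9a and Siglech were at 0 in both, with sums of 32 and 121. Of 5 mast cell or basophil genes 3 were lower, among them Mcpt8 with 85 and 14 reads, Hdc was higher and Mcpt4 was at 0 in both, with sums of 504 and 729. The part of these cells in the reads of Itgam and Itgax was not tested.

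**Figure D2:**
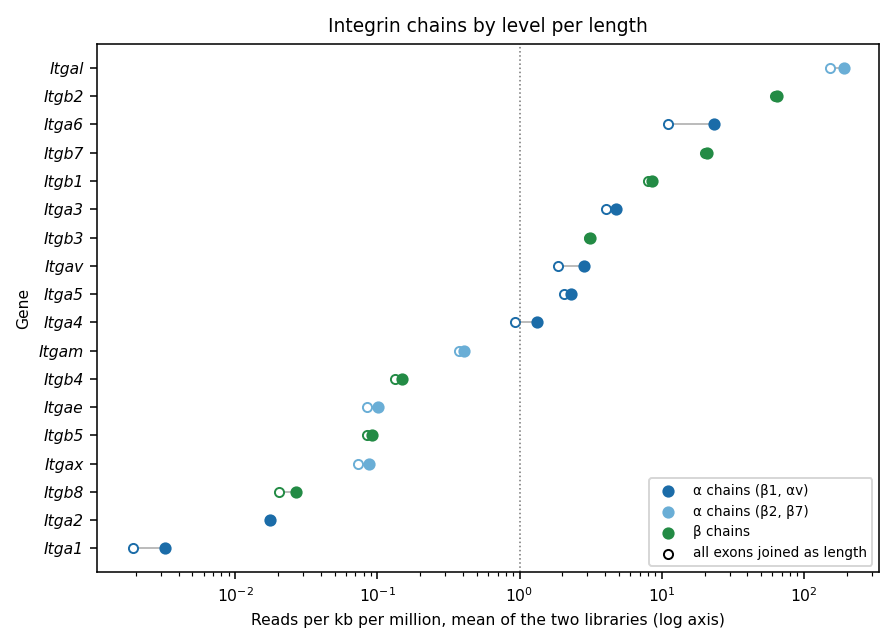
Level per length (reads per kilobase and 1000000 reads), as the mean of both libraries on a log axis, of the 18 integrin chains above 0, with the longest transcript (filled) or all joined exons (open) as the length and colours for the kind of chain. Itgal and Itgb2 stand at the top, the dotted line marks the expression limit of 1, and Itga4 crosses it with joined exons.

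Of the beta chains, Itgb2, Itgb7, Itgb1 and Itgb3 were expressed and none of them differed 2-fold. Itgb2, the CD18 chain shared by LFA-1 and the myeloid integrins, had log2 values of 13.60 in both libraries and a difference of 0.00 (interval from -0.04 to 0.03). Itgb7 had 11.99 in WT and 11.62 in KO, a difference of -0.38 (interval from -0.44 to -0.31). Itgb1, the common chain of the VLA integrins, had 10.86 and 11.19, a difference of 0.33 (interval from 0.24 to 0.41). Itgb3, which pairs with alphaV on lymphocytes, had 10.42 and 9.94, a difference of -0.49 (interval from -0.60 to -0.37). Itgb7 and Itgb3 were thus lower and Itgb1 higher in the library labelled KO, but with the GC trend removed the difference of Itgb7 came to -0.06, that of Itgb1 to 0.19 and that of Itgb3 to -0.41. Because Itgb3 is also the beta chain of the platelet integrin, platelet markers were read beside it. Of 5 such genes, Gp9 and Ppbp were at 0 in both libraries, Pf4 and Gp1ba together had 8 reads in WT and 4 in KO, and Itga2b had 99 and 53. Itgb3 itself had 1412 and 1010 reads, and the part of platelets in them was not tested.

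The remaining beta chains were under the expression limit. Itgb5, which also pairs with alphaV (chromosome 16, 33829665 to 33949338), had 37 reads in WT and 5 in KO, a log2 difference of -2.67 as deposited. The log2 ratio of these reads, with nothing added, was -2.89 (interval from -4.60 to -1.54). Itgb8, the chain of the TGF-β-activating integrin alphaVbeta8 (chromosome 12, 119158022 to 119238802), had 6 reads in WT and 23 in KO. Its log2 difference of 1.78 as deposited stayed at or above 1.03 under the 8 alternatives of scaling, pseudocount and GC content. The log2 ratio of its reads, with nothing added, was 1.94 (interval from 0.60 to 3.52). Itgb4, the partner of alpha6 in epithelial cells, had 78 and 47 reads, a difference of -0.72 (interval from -1.29 to -0.19). These 3 chains rest on few reads, and with 1 library each the spread between cultures is not known.

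Known pairs were set side by side by level per length, averaged over both libraries. For LFA-1, Itgal was 2.94 times as high as Itgb2, and for alpha6beta1, Itga6 was 2.70 times as high as Itgb1. In contrast, Itgb7 was 15.6 times as high as its partner Itga4 and 205.2 times as high as Itgae. Itgb1 was 6.47 times as high as Itga4, 3.72 times as high as Itga5 and 1.80 times as high as Itga3. Itgav and Itgb3 had levels of 2.85 and 3.12, or 1.87 and 3.06 with joined exons as the length. The chains of a pair did not always go the same way: Itgav was higher and Itgb3 lower in the library labelled KO, and Itga3 was lower while Itgb1 was higher. These ratios are of RNA and depend on the transcript length taken for each gene. With joined exons, Itga6 had a level of 11.07 and Itgb1 one of 8.02, which are closer than with the longest transcript.

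Among the ligands, Icam1 and Icam2 were expressed and differed little between the libraries. Icam1, the main LFA-1 ligand, had log2 values of 12.09 in WT and 12.03 in KO. Icam2, a constitutive LFA-1 ligand, had 10.80 and 10.73. The differences, -0.06 for Icam1 and -0.07 for Icam2, had intervals that span 0, from -0.12 to 0.00 and from -0.16 to 0.03. Vcam1, the VLA-4 ligand of activated endothelium, had 8 reads in WT and 1 in KO, a log2 difference of -2.18 as deposited. The log2 ratio of these reads, with nothing added, was -3.00 with an interval from -8.48 to -0.10. Of 5 endothelial or stromal genes, 3 were lower, 1 was higher and Col3a1 was at 0 in both, with summed reads of 180 and 133. Most of these reads were of Col1a1, with 148 and 105. Cdh5 had 4 and 0, Kdr 11 and 5, and Pdgfrb, the higher one, 17 and 23. The part of such cells in Vcam1 was not tested.

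Of the selectin ligand and hyaluronan receptor genes of the list, Selplg, Fut7 and Cd44 were expressed, and none of the 3 was higher in the library labelled KO as deposited. Selplg, which encodes PSGL-1 (chromosome 5, 113818536 to 113832644), had log2 values of 15.35 in WT and 14.95 in KO, a difference of -0.41 (interval from -0.43 to -0.39). Fut7, the fucosyltransferase that makes PSGL-1 bind selectins on T cells, had 11.24 and 10.72, a difference of -0.52 (interval from -0.61 to -0.43). Both kept this direction in each alternative, with a range from -0.42 to -0.23 for Selplg and from -0.53 to -0.23 for Fut7. Fut4, the other leukocyte fucosyltransferase, had 151 and 234 reads, a difference of 0.63 (interval from 0.33 to 0.93). Cd44, the hyaluronan receptor that is low on the naïve cells from which the cultures start, had 14.36 and 14.31, a difference of -0.05. Thus Fut7 and Fut4, which add fucose to the same kind of sugar, had opposite directions, and Fut4 was under the expression limit in level per length, at 0.719.

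All 5 activators and adaptors were expressed, with log2 differences from -0.29 to 0.36. Fermt3, which encodes kindlin-3 and is needed for integrin function in blood cells, had log2 values of 13.98 in WT and 13.69 in KO. Tln1, the talin that links beta chains to actin, had 13.77 and 13.68. Vcl, the vinculin that joins talin to actin, had 9.72 and 9.85, and its exons overlap on the other strand those of Ap3m1, a gene with 1502 and 2057 reads. Whether strand was used in counting is not stated, so reads of overlapping genes cannot be told apart, and 12 of the 34 genes overlap another annotated gene. Rap1a and Rap1b encode near-identical GTPases. Reads with several alignments were counted, and whether any were shared between these genes was not tested. Rap1a had 10.70 and 11.06, a difference of 0.36 (interval from 0.27 to 0.45), and Rap1b had 11.73 and 11.81, a difference of 0.08 (interval from 0.01 to 0.15). With the GC trend removed, Rap1a came to 0.13 and Rap1b turned to -0.15. Both integrin-associated membrane proteins were expressed as well. Cd47, an integrin partner and the ligand of SIRPα, had 13.18 and 13.37, and Cd151, a tetraspanin that binds laminin-binding integrins, had 7.93 and 7.68. The interval of Cd151, from -0.52 to 0.02, spans 0.

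**Figure D3:**
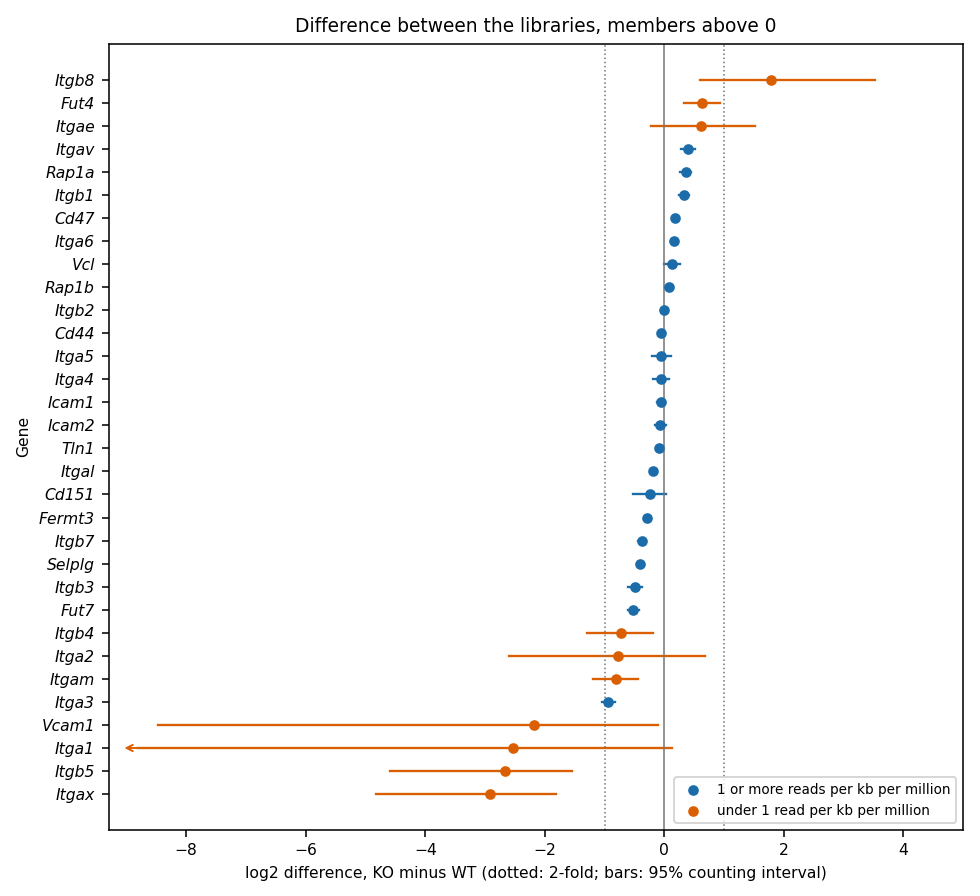
Log2 difference, KO minus WT, of the 32 genes above 0 (points, as deposited), with the 2-fold lines (dotted). Bars are 95% exact binomial intervals of the log2 ratio of rebuilt reads, with nothing added, and hold counting error only. Blue genes are at or above the expression limit, orange genes under it, and an arrow marks an interval with no lower end. All blue points lie inside the 2-fold lines, and the 5 points outside them, from Itgax at -2.91 to Itgb8 at 1.78, are orange.

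Of the 22 expressed genes, 7 were higher and 15 lower in the library labelled KO as deposited, but 14 were higher and 8 lower when scaled to Actb or to the total. Directions of small differences therefore depend on the scaling. Over the 8 alternatives of scaling, pseudocount and GC content, 13 genes kept 1 direction. These were higher for Itga6, Itgav, Itgb1, Vcl and Rap1a, and lower for Itga3, Itgal, Itgb3, Itgb7, Selplg, Fut7, Fermt3 and Cd151. A kept direction can rest on a very small difference, as for Fermt3, which came to -0.011 with the GC trend removed. The other 9, among them Itga4, Itga5, Itgb2, Cd44 and both ICAM genes, changed sign at least once.

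The differences of the expressed genes varied with the GC content of their transcripts. All 12 genes with a GC content of at least 50% were lower in the library labelled KO as deposited, and 7 of 10 genes under 50% were higher. Among all expressed genes, 30.0% of those with a GC content of at least 50% were higher, against 69.0% of those under 50%. Across the 22 genes the Spearman rho between difference and GC content was -0.748, beside -0.494 across all 9637 expressed genes, where genes are not independent replicates and share the same 2 libraries. The division at 50% was chosen after seeing the data. With the trend removed, the differences ran from -0.63 for Itga3 to 0.21 for Itga5, and 3 genes were at or past 0.3 in size instead of 8. Those 3 were Itga3, Selplg with -0.42 and Itgb3 with -0.41, and 7 of the 22 genes turned in sign. The part of GC content in the differences of single genes was not tested further.

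**Figure D4:**
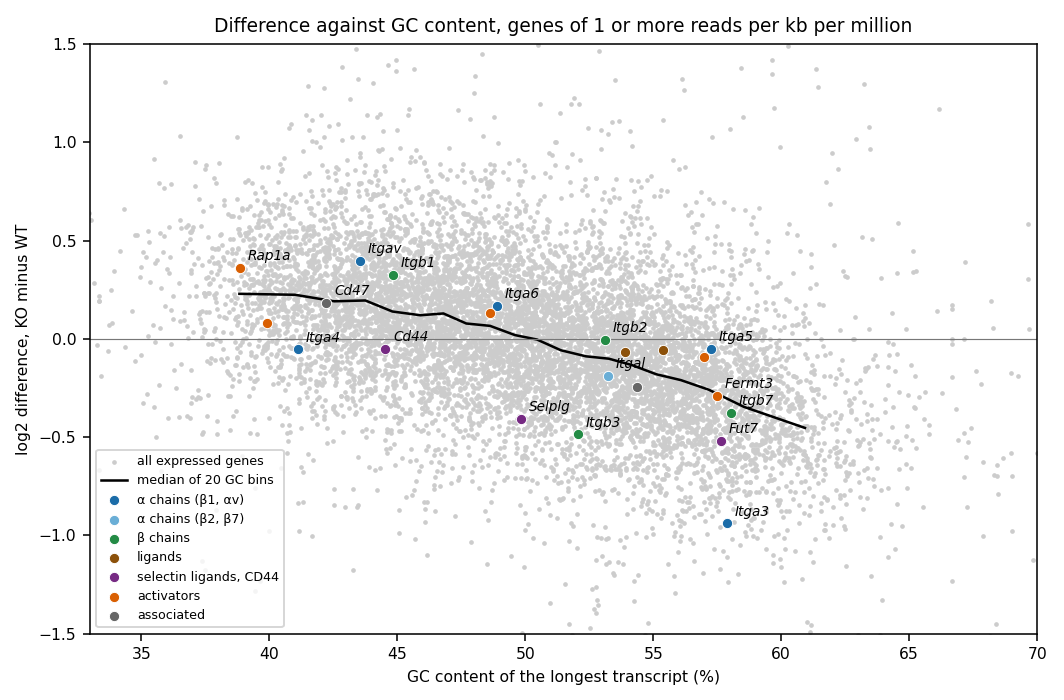
Log2 difference, KO minus WT, against the GC content of the longest transcript in percent, for all expressed genes (grey, those within the axis limits) and the 22 expressed adhesion genes coloured by role; the black line joins the medians of 20 GC bins of those genes whose log2 value reaches 8 in each library. The line falls from 0.23 to -0.45, most coloured points lie near it, and Itga3 at 57.9% GC and -0.94 lies well under it.

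Of 80 other genes of the adhesion pathways, 54 were expressed, 2 of the 80 were at or past 2-fold higher and 5 lower in the library labelled KO, beside 4.7% and 5.81% of all genes, and the median over those expressed was -0.18. Of the 54 expressed, 2 were past 2-fold in either direction, beside 2.41% of all expressed genes. The rest of those past 2-fold were among 19 genes at low level, beside 37.9% of all genes above 0 and under the limit. Of the 54, 42 were lower and 12 higher as deposited, beside 4927 lower and 4705 higher of all 9637 expressed genes. Scaled to the total, 30 of the 54 were lower and 24 higher, beside 3250 and 6387 of all expressed genes. Zyx, which encodes the focal adhesion protein zyxin, had log2 values of 15.89 in WT and 14.76 in KO. It was 2.19-fold lower in the library labelled KO, with a log2 difference of -1.13 (interval from -1.15 to -1.11) and a range from -1.13 to -0.90 over the alternatives. Gcnt1, the enzyme that builds the core sugar branch of selectin ligands, had 7.81 and 9.08. It was 2.42-fold higher, with a log2 difference of 1.28 (interval from 1.05 to 1.51). Zyx and Gcnt1 were the only genes of these lists past 2-fold as deposited when the mean log2 value had to reach 8, a level at which 1.46% of all genes were past 2-fold.

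By list, the focal adhesion genes had 14 of 17 expressed and 1 past 2-fold, Zyx, and after Zyx the highest levels per length were those of Ptk2b, with a difference of -0.37, and Fyn, with 0.07. The 22 genes of Rap1 and inside-out signalling had 18 expressed, and the highest were Sipa1, a brake on Rap1, with -0.26, and the adaptors Skap1 with -0.18 and Fyb with -0.17. In this list only Rap1gap, another brake on Rap1, was past 2-fold, with 83 and 8 reads. Of 13 genes of selectins and ligand glycosylation 10 were expressed, among them Spn (CD43) with -0.27 and St3gal4 with -0.36. St3gal6, a sialyltransferase with 199 and 94 reads, was past 2-fold lower. Of 22 other adhesion receptors and ligands 11 were expressed, led by Cd82 with 0.14, Cd2 with 0.14 and Cd6 with -0.65. In this list Sirpa, the receptor of CD47, had 332 and 50 reads, a log2 difference of -2.71 (interval from -3.19 to -2.30), and Fn1 had 11 and 0 reads. Of 6 further integrin alpha chains, Itga7 alone was expressed, with log2 values of 12.12 and 11.67, Itga10 and Itga2b had differences of -0.42 and -0.89, and Itga9 had 27 and 57 reads and was past 2-fold higher. Rap1gap, St3gal6, Sirpa, Fn1 and Itga9 were named after their values were seen.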

How the data were processed

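RNA was extracted with TRIzol and made into libraries with an mRNA kit that selects poly(A) RNA. Per the labels, the authors aligned reads to mm10 with TopHat and normalized with edgeR; the versions of TopHat and edgeR (as opposed to R and Bioconductor), the annotation and the use of strand are not given in the sources used here. The deposited values fit a log2 of a normalized count plus 1, inferred from the values, not from a stated unit; the study's methods also name FPKM from cufflinks, but 1 read has the same worth for every gene here, whatever its length. Reads were rebuilt by dividing by the worth of 1 read in each library, 0.9705 in WT and 0.9685 in KO, and 100% and 99.94% of low values came within 0.1 read of a whole number. Of the gene symbols, 95.72% matched a GENCODE M21 transcript, whose length and GC content were used. With 1 library per genotype no p-value was computed. A call is a difference of at least 2-fold as deposited. Intervals are 95% Clopper-Pearson intervals of the log2 ratio of rebuilt reads, with nothing added, and cover counting error only. The differences beside them are as deposited, with 1 added, so for genes of few reads a difference and its interval are not centred alike. The floor is 3 reads. Computation was in Python 3.11.15 (scipy 1.17.1 for the intervals, matplotlib 3.10.9 for the plots, numpy 2.4.6, pandas 2.3.3), and the scripts were tested on simulated data. The 34 genes and the lists were chosen with earlier results of these data known. All 34 genes were named. Of the pathway lists, those past 2-fold with a mean log2 value of at least 8 and up to 3 of the most expressed per list were named. One gene that this rule names is not reported here. Alternatives were other scalings, pseudocounts of 0.1 and 10, other folds and minimum levels, removal of the GC trend and joined exons. Naïve cell libraries were not analysed here.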

Additional observations from a re-analysis of the deposited data

How the results depend on the processing

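No paired analysis was possible because there is 1 library per genotype and the labels carry no replicate numbers, and for the same reason no library could be left out. As deposited, 1 adhesion gene was past 2-fold higher and 4 lower. At 1.5-fold these became 3 and 8, with a pseudocount of 10 the lower count was 2, and with a mean log2 value of at least 4, or of at least 8, both counts were 0 because the 5 genes rest on few reads. The pathway genes, 2 higher and 5 lower, became 4 and 13 at 1.5-fold, 1 was higher with a pseudocount of 10, and 3 were lower when scaled to the total, an alternative chosen after seeing the data. The median over the 32 adhesion genes above 0 moved from -0.078 to 0.037 when scaled to Actb and to 0.09 when scaled to the total. Of 256 differences of single genes under the 8 alternatives, 191 stayed within the counting interval and 65 left it, mostly under scaling to the total, GC removal and Actb scaling (21, 18 and 17). The number of expressed genes, 22, was 24 at a limit of 0.3, 17 at 3 and 21 with joined exons. Depth limits the low genes, where 3 reads correspond to a log2 value of 1.95.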

Other observations

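The lists held 6 tetraspanins, membrane proteins that organize integrins and co-receptors, and they are described here after their values were seen. Cd82, Cd53, Cd37, Cd81 and Cd9 had levels per length of 195.3, 81.7, 77.4, 51.0 and 22.4, and Cd151 had 1.85. The log2 differences (KO minus WT) of the first 5 were 0.14, 0.05, -0.46, -0.21 and -0.17. Pecam1, an adhesion protein of leukocytes and endothelium, had 21044 reads in the library labelled WT and 15652 in the library labelled KO, a log2 difference of -0.43. Selp, which encodes P-selectin, had 941 and 990 reads, and Madcam1, the ligand of alpha4beta7, had 21 and 33 reads.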
